A study of Sus scrofa with 36 samples.

Results

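Expression of 43 genes of glycolysis and the citric acid cycle was described in the adrenal glands of 36 pigs. They were chosen from a list of 54 genes of glucose uptake, glycolysis, lactate formation, pyruvate use, gluconeogenesis, the citric acid cycle and malic enzymes. A gene was kept when a probe of the array carried its name or its RefSeq transcript, and each gene was followed by 1 probe, the one with the highest mean over the 36 arrays. The authors' table lists its probes under 33750 distinct names in all. Of the 54 listed genes, 10 were found under no probe name: PFKL, PFKP, PFKFB2, PFKFB3, PGAM1, ENO1, ENO2, IDH3G, OGDH and PKM, the last of which is on the array under its older name PKM2. The single probe of IDH1 is not in the authors' table, and it was above background on 20 of the 36 arrays.

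Glycolysis splits glucose into pyruvate in the cytosol, and lactate dehydrogenase converts pyruvate to lactate and back. In mitochondria, the pyruvate dehydrogenase complex turns pyruvate into acetyl-CoA, and pyruvate dehydrogenase kinases switch this complex off by phosphorylation, while pyruvate carboxylase turns pyruvate into oxaloacetate instead. The citric acid cycle then oxidises acetyl-CoA and feeds the respiratory chain, and in the adrenal cortex mitochondrial malate and isocitrate also help to supply the NADPH that steroid synthesis uses.

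The pigs were castrated males of 3 breeds, Creole (a local breed of Guadeloupe), Large White and a cross of both (Large White x Creole), with 12 pigs per breed and 1 array per pig. In each breed 6 pigs were slaughtered at thermoneutrality (TN, 24 °C) and 6 after 4 or 5 days of heat stress (HS). The methods give 32 °C for the HS pigs and the deposited labels give 30 °C. All pigs entered the climatic room at 11 weeks of age, were fed ad libitum on the same diet and came from 3 blocks of 4 littermates per breed. They were kept in pens of 3 pigs of 1 breed. The TN pigs were slaughtered before the temperature rose and the HS pigs after it, so the day of slaughter and the temperature cannot be told apart, and pen and litter are not given with the arrays. Frozen gland was ground to powder, so its cell types were measured together, and fewer cells of a type cannot be told apart from less RNA per cell.

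Values are normalized log2 intensities, on which a difference of 1 is a doubling. Between 42436 and 48060 of the 60305 probes per array were above background, any pair of arrays correlated at 0.982 to 0.996, and each of the 5 slides held TN and HS pigs in equal number. Of the gland's own markers, 7 of 8 for cortex and 5 of 8 for chromaffin cells had a tested probe. All 12 of these were above background on all 36 arrays. The tested markers of muscle, fat, liver and other cells were so too, so detection alone does not mark the gland. In Creole pigs the median summed level was 19.62 for cortex and 19.19 for chromaffin markers. It was 14.63 for muscle, 14.95 for liver or kidney and 12.74 for adipocyte markers. Among the other cortex and chromaffin markers, CYP11B1, TH and SLC18A2 were found under no probe name. All 43 genes were above background on all 36 arrays, and 0 were saturated on any array. The spread between pigs of a group was close to that of the array as a whole, with a median SD of 0.18 over the 43 genes and 0.18 over all 45943 probes tested. The widest SD was 0.83, for HK2 (hexokinase 2, an inducible enzyme that traps glucose in the cell), and the narrowest was 0.05.

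In the comparison of HS with TN pigs, 0 of the 43 genes passed an adjusted p of 0.05, by limma with Benjamini-Hochberg adjustment over all probes tested. Of all probes, 0.886% passed, 0.39% higher and 0.496% lower in HS pigs. At an unadjusted p under 0.05 there was 1 of the 43 genes, against 13.4% of all probes. The HS minus TN difference was above 0 for 13 genes and below 0 for 30, with a median of -0.02 on the log2 scale, beside a median of 0.00 over all probes. Differences ranged from -0.51 to 0.15. PDHA1, of the pyruvate dehydrogenase complex, gave 0.15 on the probe used, while its other 3 probes gave -0.10, -0.09 and -0.08. The 95% confidence interval lay within 0.1 of no difference for 5 genes, within 0.25 for 29 and within 0.5 for 41. The exceptions to the last were HK2 and ALDOC (aldolase C). These intervals take the pigs as independent. The pigs shared pens and litters, so the intervals may be too narrow.

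By step of the pathway, the median HS minus TN difference was -0.03 for the 2 glucose transporters, 0.01 for the 3 genes of glucose phosphorylation and isomerisation and -0.05 for the 8 genes of lower glycolysis. It was -0.06 for the 2 lactate dehydrogenases, -0.02 for the 5 genes of the pyruvate dehydrogenase complex and 0.01 for its 4 kinases. For the 4 genes of gluconeogenesis it was -0.05. For the 5 genes from citrate synthase to 2-oxoglutarate it was -0.01, and for the 7 from there to oxaloacetate -0.05. The 2 malic enzymes gave -0.09. PFKM, the only phosphofructokinase with a probe, gave -0.10. In each of these steps 0 genes passed.

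**Figure D1:**
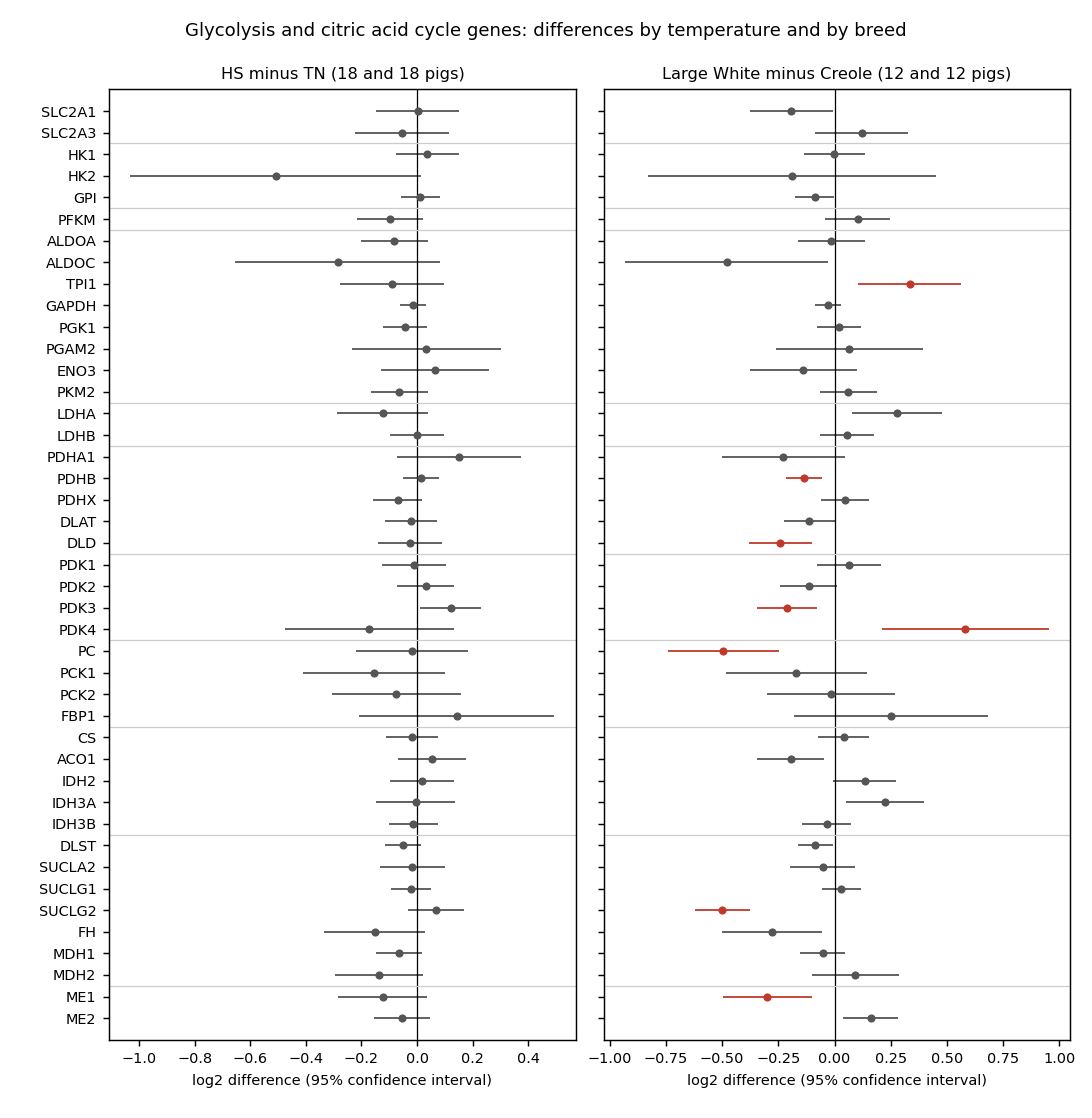
Log2 difference of each of the 43 genes between HS and TN pigs (left, 18 and 18 pigs) and between Large White and Creole pigs (right, 12 and 12 pigs), with 95% confidence intervals from limma; grey lines separate the steps of the pathway and red marks an adjusted p under 0.05. On the left 0 genes are red and on the right 8 are, 2 above 0 and 6 below.

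The 6 genes of smallest p are given with their values, and none of them passed. PDK3, a pyruvate dehydrogenase kinase, gave the 1 unadjusted p under 0.05. Its level was 10.94 to 11.73 in the 18 TN pigs, with a median of 11.44, and 11.08 to 11.92 in the 18 HS pigs, with a median of 11.59. The ranges overlapped, and 13 of the 18 HS pigs exceeded the average of their breed at TN. The difference was 0.12 (SE 0.05, 95% confidence interval 0.01 to 0.23, adjusted p = 0.301 by limma), and it was above 0 on 5 of 5 slides.

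HK2 had the largest difference in size and also the widest spread. It ranged from 7.39 to 9.89 in TN pigs (median 9.19) and from 6.92 to 10.16 in HS pigs (median 8.42). Most of either range was shared, and 13 of 18 HS pigs were under the average of their breed at TN. The difference was -0.51 (SE 0.26, adjusted p = 0.389 by limma), below 0 on 4 of 5 slides and 0.44 on the other.

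MDH2 and FH are neighbouring enzymes of the cycle, mitochondrial malate dehydrogenase and fumarase. MDH2 lay at 13.81 to 14.52 in TN pigs (median 14.07) and at 13.47 to 14.51 in HS pigs (median 13.95), a difference of -0.14 (SE 0.08, adjusted p = 0.458 by limma). The 4 MDH2 probes gave -0.18 to -0.14, and 3 of their 6 pairs share 15 bases or more. FH lay at 10.90 to 12.29 in TN pigs (median 11.48) and at 10.91 to 11.91 in HS pigs (median 11.31), a difference of -0.15 (SE 0.09, adjusted p = 0.483). For either gene 13 of 18 HS pigs were under that average, and the difference was below 0 on 5 of 5 slides for FH and on 4 of 5 for MDH2.

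PFKM, the muscle form of phosphofructokinase and the committed step of glycolysis, lay at 11.66 to 12.29 in TN pigs and at 11.55 to 12.26 in HS pigs. Its difference was -0.10 (SE 0.06, adjusted p = 0.495 by limma), with 14 of 18 HS pigs under their breed's TN average and 4 of 5 slides below 0. PDHX, a structural subunit of the pyruvate dehydrogenase complex, lay at 8.80 to 9.24 in TN pigs and at 8.78 to 9.29 in HS pigs. Its difference was -0.07 (SE 0.04, adjusted p = 0.507 by limma), below 0 on 5 of 5 slides. The HS pigs thus overlapped the TN pigs in each of the 6 genes. Over all 45943 probes, 0 separated the 18 HS from the 18 TN pigs.

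**Figure D2:**
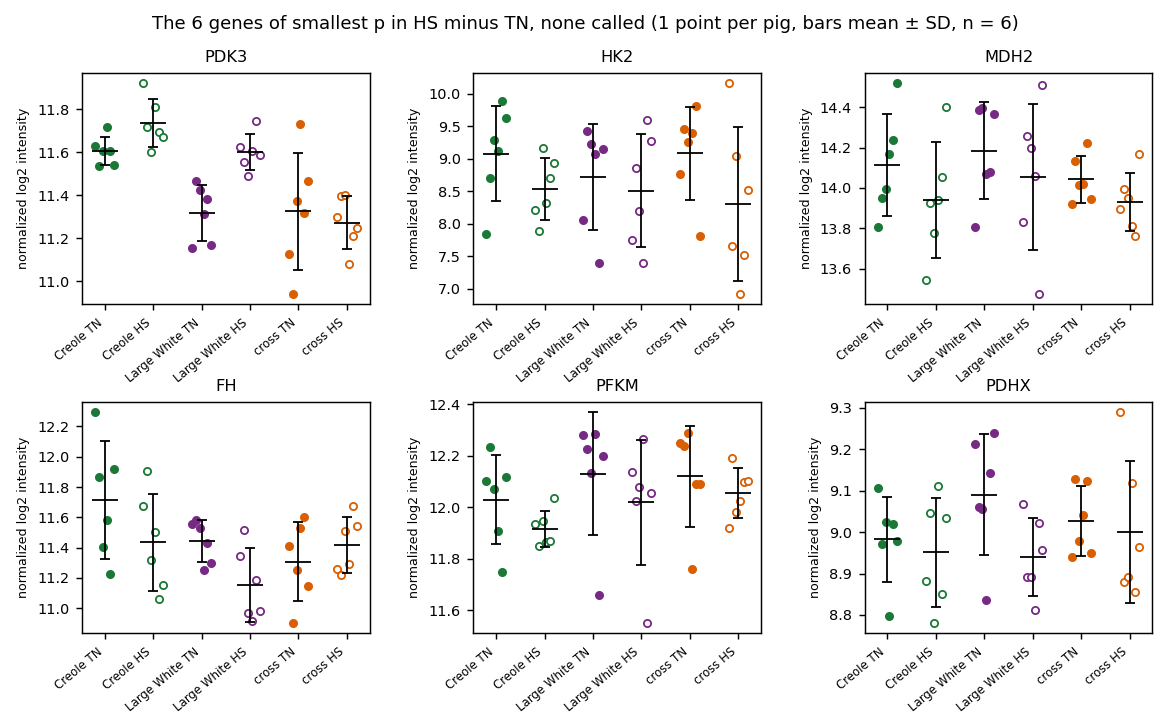
Normalized log2 intensity of the 6 genes of smallest p between HS and TN pigs, 1 point per pig in each breed and temperature group (filled TN, open HS; bars are mean ± SD, n = 6). The TN and HS pigs overlap in each gene over the 3 breeds; in PDK3 the 6 Large White HS pigs lie above the 6 Large White TN pigs, as 0.359% of all probes separate them.

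Within a breed, with 6 HS and 6 TN pigs, 0 of the 43 genes passed in Creole, Large White or cross pigs by limma, against 0%, 0.0109% and 0% of all probes. At an unadjusted p under 0.05 there was 1 gene in each breed, PCK2 in Creole pigs, PDK3 in Large White pigs and ME1 (cytosolic malic enzyme, which makes NADPH) in the cross, against 4.8%, 6.27% and 12.2% of all probes. The test of a different response among breeds also called 0 of 43 genes and 0% of all probes, with an unadjusted p under 0.05 for 2 genes, PDK3 and PCK2, against 4.21% of all probes. PCK2 and ME1 are given here after their values were seen.

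For PDK3, the 6 Large White TN pigs ranged from 11.15 to 11.47 (median 11.35) and the 6 Large White HS pigs from 11.49 to 11.74 (median 11.60), without overlap. PDK3 was the 1 gene of 43 (2.33%) to separate these pigs, as did 0.359% of all probes, and on its other 2 probes these pigs overlapped. The difference was 0.28 (SE 0.09, adjusted p = 0.581 by limma). In Creole pigs it was 0.13 and in the cross -0.05, and the test of a difference among the 3 responses gave an adjusted p of 0.982 by limma. PCK2, the mitochondrial form of phosphoenolpyruvate carboxykinase, had medians of 10.90 at TN and 10.60 at HS in Creole pigs, and of 10.54 at TN and 10.81 at HS in the cross. Its HS minus TN difference was -0.42 in Creole, -0.11 in Large White and 0.30 in cross pigs (SE 0.18 each), with an adjusted p of 0.982 by limma for the difference among them. The TN and HS pigs overlapped in PCK2 in either breed, from 10.36 to 11.65 and from 10.13 to 11.06 in Creole pigs and from 10.22 to 10.73 and from 10.46 to 11.41 in the cross.

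Between breeds some of the genes differed. Of the 43 genes, 8 passed in Large White minus Creole (18.6%), 2 higher and 6 lower in Large White pigs, where 11.3% of all probes passed, 5.89% higher and 5.38% lower. The difference was above 0 for 18 of the 43 genes and below 0 for 25, with a median of -0.03, beside 0.00 over all probes. At an unadjusted p under 0.05 there were 17 genes, against 24.2% of probes. The count depended on the processing: with arrays scaled by their median 2 genes passed (4.65%), a smaller share than the 4626 of 45943 probes in that setting. With a slide left out, 3 to 5 genes passed (6.98% to 11.6%), beside 5.57% to 9.24% of probes. The genes lower in Large White pigs were SUCLG2, PC, DLD, PDHB, PDK3 and ME1, and those higher were PDK4 and TPI1. An F test among the 3 breeds called 7 genes, SUCLG2, PC, TPI1, DLD, PDHA1, PDHB and PDK3, against 10.4% of all probes, and 15 had an unadjusted p under 0.05, against 24.5%. In this F test DLD passed in 14 of 50 other settings and PDHB in 29.

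SUCLG2, the GTP-forming subunit of succinyl-CoA ligase in the citric acid cycle, differed most clearly. The gene lies on Sscrofa11.1 at chr13:48650851-49090521. Its 2 probes share no run of 15 bases. They are shown here because both passed, in lower case since they share nothing, the first by its first 30 bases and the second whole, as the scanner files list them.
SUCLG2 probe 1: agaagggattgttctctcatcactgtgaaa
SUCLG2 probe 2: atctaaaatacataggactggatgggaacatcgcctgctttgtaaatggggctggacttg
With probe 1, the 12 Creole pigs ranged from 13.74 to 14.10 (median 14.04), the 12 Large White pigs from 13.27 to 13.84 (median 13.50) and the 12 cross pigs from 13.68 to 14.10 (median 13.95). All 12 Large White pigs were below the Creole mean and 10 of them were below the lowest Creole pig. The difference was -0.50 (SE 0.06, adjusted p = 6.09e-07 by limma), below 0 on 5 of 5 slides. Probe 2 gave -0.22 (SE 0.04, adjusted p = 0.000978). The cross pigs lay near the Creole pigs: all 12 were above the Large White mean and 8 were below the Creole mean. SUCLG1 and SUCLA2, the shared subunit and the ATP-forming subunit of the same enzyme, gave 0.03 (SE 0.04) and -0.05 (SE 0.07) and did not pass.

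PC, pyruvate carboxylase, which refills oxaloacetate and opens gluconeogenesis, lies at chr2:5566608-5587797. Its 3 probes also share no run of 15 bases and are shown because their differences had 1 sign, the first and second by their first 30 bases.
PC probe 1: tgcaggggagacccaaacccaggtcctgag
PC probe 2: gtccacgtgaccacagacatgacactggag
PC probe 3: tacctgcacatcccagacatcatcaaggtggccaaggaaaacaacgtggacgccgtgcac
With probe 1, the Creole pigs ranged from 13.30 to 14.51 (median 13.94), the Large White pigs from 13.09 to 14.26 (median 13.42) and the cross pigs from 13.13 to 13.81 (median 13.42). The ranges overlapped, but 11 of 12 Large White and 12 of 12 cross pigs lay below the Creole mean. Large White minus Creole was -0.49 (SE 0.12, adjusted p = 0.00585 by limma), below 0 on 5 of 5 slides. Probe 2 gave -0.60 (adjusted p = 0.00267), while probe 3, the dimmest with a mean of 5.75, gave -0.15 and did not pass (adjusted p = 0.233). The other genes of gluconeogenesis did not pass: PCK1 gave -0.17 (SE 0.15), PCK2 -0.02 (SE 0.14) and FBP1, fructose-bisphosphatase, 0.25 (SE 0.21).

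Of the 5 genes of the pyruvate dehydrogenase complex, 2 passed, both lower in Large White pigs, where 5.38% of all probes were lower. DLD, the dehydrogenase subunit that the complex shares with 2-oxoglutarate dehydrogenase, lies at chr9:107642129-107668443. Creole pigs ranged from 13.61 to 13.88 (median 13.74), Large White pigs from 13.01 to 13.85 (median 13.47) and cross pigs from 13.37 to 13.71 (median 13.65). The Large White pigs spread wider, with an SD of 0.26 against 0.08 in Creole pigs, and 7 of 12 were below the lowest Creole pig. The difference was -0.24 (SE 0.07, adjusted p = 0.0189 by limma), below 0 on 4 of 5 slides. All 9 DLD probes were below 0, from -0.83 to -0.08, and 8 of them passed, with 9 distinct sequences of which 2 of 36 pairs share 15 bases or more.

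PDHB, the beta subunit of the decarboxylase, lies at chr13:40161519-40167502 and has 1 probe. It ranged from 14.56 to 14.75 in Creole, from 14.28 to 14.71 in Large White and from 14.38 to 14.66 in cross pigs. Of the 12 Large White pigs 11 lay below the Creole mean, 7 of them below the lowest Creole pig. The difference was small but so was the spread, -0.14 (SE 0.04, adjusted p = 0.0198 by limma), below 0 on 5 of 5 slides. It passed with each of the 36 pigs left out, but not in 5 of 14 other settings. DLAT gave -0.11 (SE 0.06) and PDHX 0.05 (SE 0.05), and neither passed.

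Among the 4 pyruvate dehydrogenase kinases, 1 was lower and 1 higher in Large White pigs. PDK3, at chrX:20486205-20598492, ranged from 11.54 to 11.92 in Creole (median 11.65), from 11.15 to 11.74 in Large White (median 11.48) and from 10.94 to 11.73 in cross pigs (median 11.31). Large White minus Creole was -0.21 (SE 0.07, adjusted p = 0.0306 by limma), and 11 of 12 Large White pigs lay below the Creole mean. The PDK3 call was lost without 3 of the 36 pigs, each left out alone, and in 6 of 14 other settings. Only the probe used passed, and the other 2 PDK3 probes gave -0.17 (adjusted p = 0.0569) and -0.19 (adjusted p = 0.489). PDK4, the kinase known to rise in fasting, at chr9:75246956-75260134, ranged from 12.12 to 13.54 in Creole (median 12.82), from 12.32 to 13.82 in Large White (median 13.53) and from 12.23 to 13.93 in cross pigs (median 13.13). It was the largest rise, 0.58 (SE 0.18, adjusted p = 0.0336 by limma), with 11 of 12 Large White pigs above the Creole mean and 6 above the highest Creole pig. Leaving out 1 pig lost this call for 8 of the 36 pigs, and 4 of 14 other settings lost it. The 11 PDK4 probes, of 10 distinct sequences, gave 0.46 to 0.70, and 10 passed. PDK1 gave 0.06 (SE 0.07) and PDK2 -0.12 (SE 0.06), without passing.

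ME1, at chr1:82799878-82989895, ranged from 11.20 to 11.91 in Creole (median 11.42), from 10.97 to 11.58 in Large White (median 11.20) and from 10.86 to 11.88 in cross pigs (median 11.31). The difference was -0.30 (SE 0.10, adjusted p = 0.0394 by limma), with 11 of 12 Large White pigs below the Creole mean. This call was lost without 12 of the 36 pigs, each left out alone, and in 5 of 14 other settings. The 3 ME1 probes gave -0.31 to -0.28 but only the probe used passed, and the differences of PDK3, PDK4 and ME1 each had 1 sign on 5 of 5 slides. An ME1 probe of the same 60 bases gave an adjusted p of 0.0673. ME2, the mitochondrial malic enzyme, went the other way without passing, at 0.16 (SE 0.06, adjusted p = 0.0863).

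**Figure D3:**
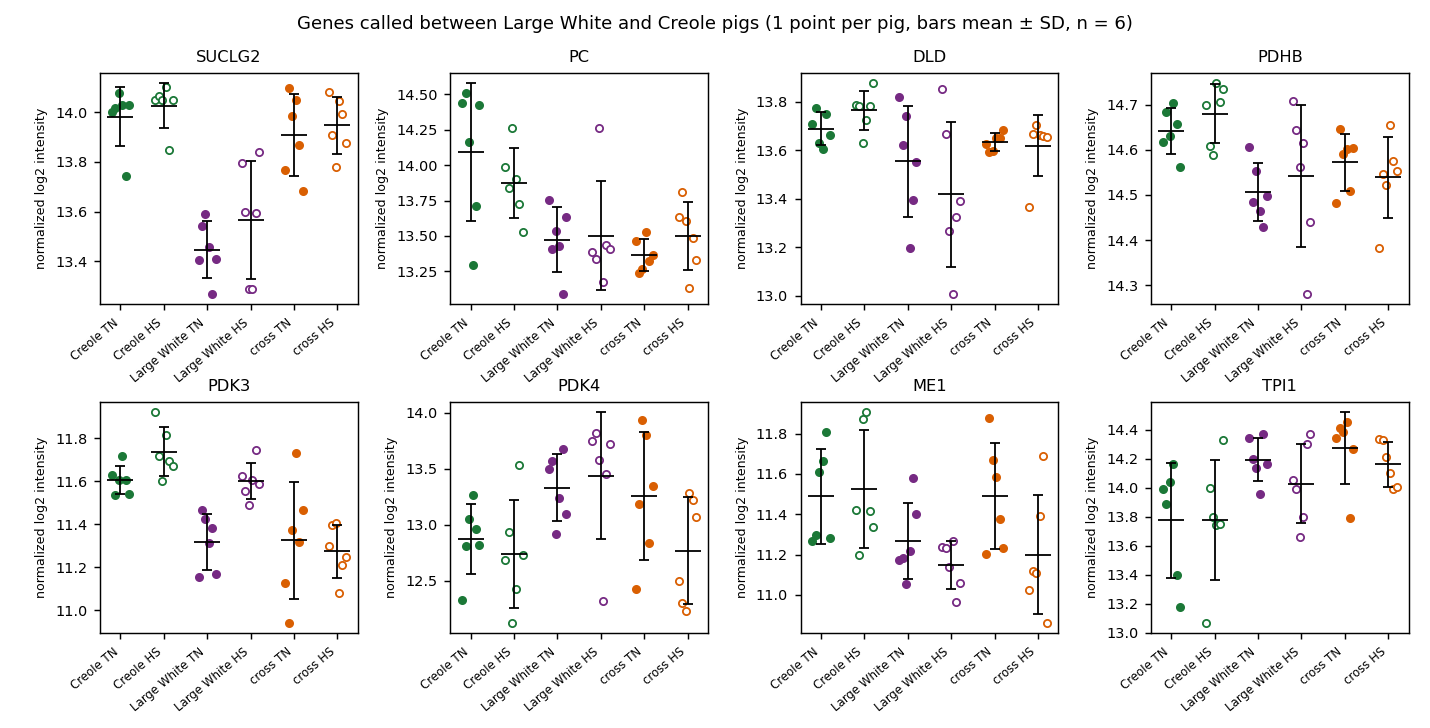
Normalized log2 intensity of the 8 genes that passed between Large White and Creole pigs, 1 point per pig in each breed and temperature group (filled TN, open HS; bars are mean ± SD, n = 6). SUCLG2 of the Large White pigs lies mostly below the Creole and cross pigs, and the other 7 genes overlap more.

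TPI1, triose-phosphate isomerase, was the only gene of lower glycolysis that passed, and its probes did not give 1 result. The gene lies at chr5:63839473-63842853. The probe used is described in the scanner files as a TPI1 pseudogene, so it is uncertain which RNA it reads, and 3 of the 6 probes are shown for that reason. Probe 1, the one used, is shown by its first 30 bases, and capitals in the others mark a run of 15 or more bases that they share.
TPI1 probe 1: aaacacctggcactgagccctgtggtttgt
TPI1 probe 3: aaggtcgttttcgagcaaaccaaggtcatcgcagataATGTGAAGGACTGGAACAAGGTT
TPI1 probe 6: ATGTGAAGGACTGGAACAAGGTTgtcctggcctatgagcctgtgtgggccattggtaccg
With probe 1, Creole pigs ranged from 13.07 to 14.33 (median 13.84), Large White pigs from 13.66 to 14.37 (median 14.15) and cross pigs from 13.79 to 14.45 (median 14.29). Large White minus Creole was 0.33 (SE 0.11, adjusted p = 0.0488 by limma), and it was above 0 on 4 of 5 slides (-0.13 to 1.20). The 1.20 came from slide 1, which held 2 Large White pigs and 1 Creole pig. The call was lost without 27 of the 36 pigs, each left out alone (adjusted p up to 0.0976), and in 9 of 14 other settings. The other 5 probes gave -0.02 to 0.12 and none passed. Probe 3 gave -0.02 (SE 0.06) and probe 6 gave -0.02 (SE 0.06).

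The other 7 genes of lower glycolysis did not pass between the breeds. GAPDH, which oxidises glyceraldehyde 3-phosphate, gave -0.03 (SE 0.03) and PGK1, phosphoglycerate kinase, 0.02 (SE 0.05). Their confidence intervals were -0.09 to 0.03 and -0.08 to 0.12, with the pigs taken as independent. GAPDH was the brightest of the genes followed (mean 18.50, SD 0.05). Quantile normalization brings the brightest probes to nearly the same value on every array, so the GAPDH interval sets no bound on the difference. ALDOC gave -0.48 with a wide error (SE 0.22, adjusted p = 0.175). Next to the threshold stood LDHA, the lactate dehydrogenase subunit of glycolytic tissues, at 0.28 (SE 0.10, adjusted p = 0.0644), with 12 of 12 Large White pigs above the Creole mean. ACO1, cytosolic aconitase, gave -0.20 (adjusted p = 0.0806), IDH3A, a subunit of the NAD-dependent isocitrate dehydrogenase, 0.22 (adjusted p = 0.0898) and FH -0.28 (adjusted p = 0.0999 in limma). CS, citrate synthase, which opens the cycle, gave 0.04 (SE 0.06). Glucose transporters, hexokinases, glucose-6-phosphate isomerase (GPI), phosphofructokinase and lactate dehydrogenases held 0 of the genes that passed, with an unadjusted p under 0.05 for SLC2A1, GPI and LDHA.

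The breed difference was also estimated at each temperature. At TN, 2 of 43 genes passed (SUCLG2 and PC), against 3.48% of all probes, 2.02% higher and 1.46% lower in Large White pigs. At HS, 2 passed (SUCLG2 and DLD), against 2.8%, 1.37% higher and 1.43% lower. All of these calls were lower in Large White pigs. Over 50 other settings, PC passed at TN in 37 and DLD at HS in 28, while SUCLG2 passed in 50 at TN and in 49 at HS, the exception being without slide 3. Of all probes, 15.8% at TN and 15.9% at HS had an unadjusted p under 0.05. SUCLG2 was -0.54 (SE 0.09) at TN and -0.46 (SE 0.09) at HS. PC was -0.62 at TN and -0.37 at HS (SE 0.17 each), and DLD -0.14 at TN and -0.35 at HS (SE 0.10 each). PDHB was -0.14 in either set, PDK3 -0.29 and -0.14, ME1 -0.22 and -0.38, PDK4 0.46 and 0.70 and TPI1 0.42 and 0.25. The 8 genes were chosen by the test over these same pigs, so their sign at each temperature is a description and no separate check.

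**Figure D4:**
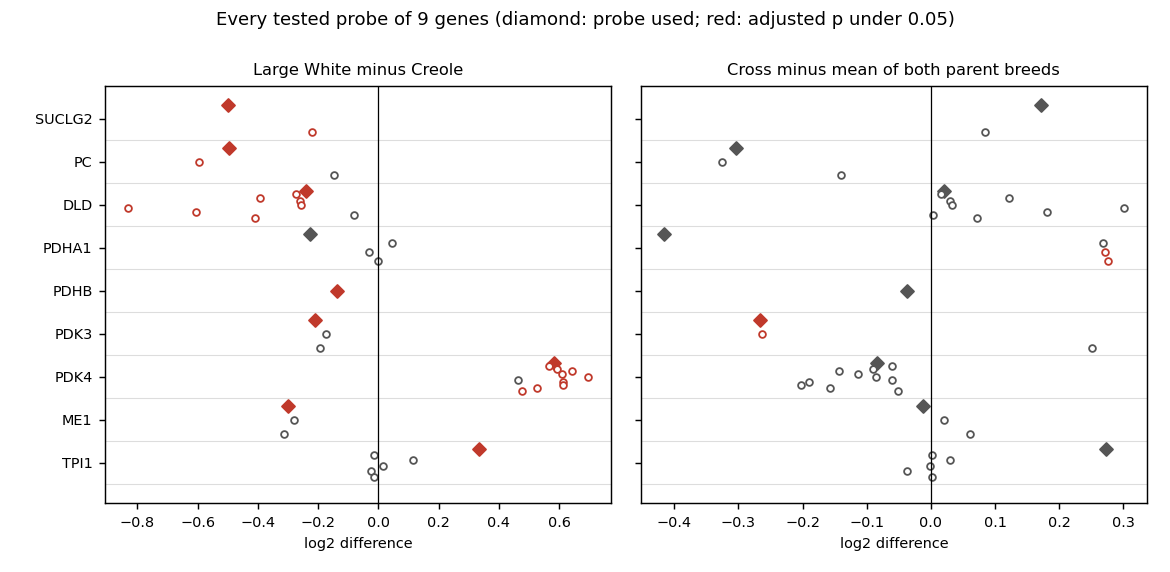
Log2 difference of every tested probe of 9 genes, between Large White and Creole pigs (left) and between the cross and the mean of both parent breeds (right); diamonds are the probes used, circles the other probes, and red marks an adjusted p under 0.05 by limma. The PDK4 and DLD probes lie on 1 side of 0 on the left, while TPI1 on the left, and PDHA1 and PDK3 on the right, have probes on either side of 0.

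The cross was compared with the mean of both parent breeds, the midpoint between them. Of the 43 genes 1 passed, PDK3, against 0.409% of all probes (0.202% higher and 0.207% lower), and 6 had an unadjusted p under 0.05, against 11% of probes. PDK3 was lower in the cross (difference -0.27, SE 0.06, adjusted p = 0.0249 by limma), with 10 of 12 cross pigs below both parental means and a difference below 0 on 5 of 5 slides. Its 3 probes are shown because they did not go 1 way. Probe 1 by its last 30 bases and probe 3 by its first 30 share the run in capitals, and probe 2 is shown by its first 30.
PDK3 probe 1: tcttcctcttgagcGCATTGATTTTATTCT
PDK3 probe 2: taagagaagtattgggagagagaatgtata
PDK3 probe 3: GCATTGATTTTATTCTgaaattcagttgta
Probe 3 gave -0.26 (adjusted p = 0.0136), and probe 2, which shares no such run, gave 0.25 (SE 0.13, adjusted p = 0.494). The call in the cross thus rests on overlapping probes, and it was lost with arrays scaled by their median, with the mean over the 3 probes and without slide 2, slide 3 or slide 5.

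PDHA1, the alpha subunit of pyruvate dehydrogenase that the kinases phosphorylate, at chrX:15699924-15718908, showed a wider split between probes and was singled out after its values were seen. Its 4 probes share no run of 15 bases, and they are printed because they read the gene in opposite ways, the first by its first 30 bases.
PDHA1 probe 1: gctgagctcgctgtagtctctgtaatgatg
PDHA1 probe 2: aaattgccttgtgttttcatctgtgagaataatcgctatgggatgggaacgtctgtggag
PDHA1 probe 3: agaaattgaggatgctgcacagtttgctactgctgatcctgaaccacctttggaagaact
PDHA1 probe 4: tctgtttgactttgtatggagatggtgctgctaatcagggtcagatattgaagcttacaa
With probe 1, the probe used, Creole pigs ranged from 14.08 to 14.36 (median 14.21), Large White pigs from 13.22 to 14.27 (median 14.13) and cross pigs from 13.16 to 14.33 (median 13.40). The values formed a low and a high set with no pig between 13.408 and 14.001. The low set held 9 pigs, 7 of the 12 cross and 2 of the 12 Large White pigs, and 0 of the 12 Creole pigs. The cross minus the mean of the parents was -0.42 (SE 0.12, adjusted p = 0.107 by limma).

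The other PDHA1 probes were higher in the cross. Probe 2 gave 0.28 (SE 0.06, adjusted p = 0.0375), probe 3 gave 0.27 (SE 0.08, adjusted p = 0.112) and probe 4 gave 0.27 (SE 0.06, adjusted p = 0.0370 by limma). Of the 12 cross pigs, 10, 9 and 11 lay above both parental means on probes 2, 3 and 4, while 7 lay below both on probe 1. The level of PDHA1 in the cross thus has no single direction in these data.

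**Figure D5:**
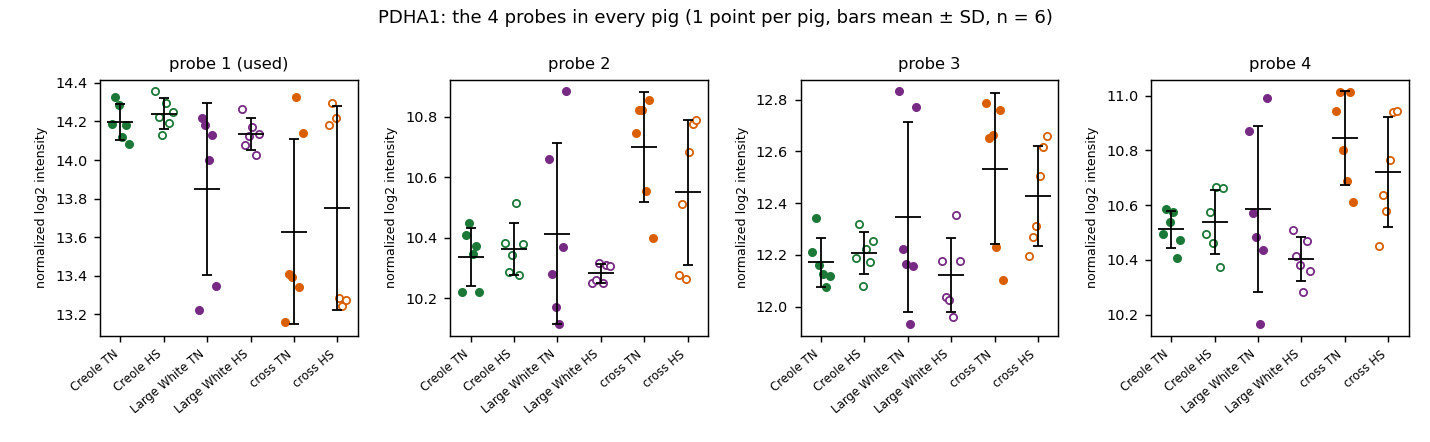
Normalized log2 intensity of the 4 PDHA1 probes in every pig, by breed and temperature group (filled TN, open HS; bars are mean ± SD, n = 6). On probe 1, 7 cross pigs and 2 Large White TN pigs lie at 13.408 or below and all others at 14.001 or above, and on probes 2 to 4 most cross pigs lie above the means of both parent breeds.

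Other genes around these pathways were counted for comparison, 75 with a probe out of 104 listed. In HS minus TN, 0 of the 75 passed, with a median of -0.01, an unadjusted p under 0.05 for 8 (13.4% of all probes had one) and 34 above 0. In Large White minus Creole 11 of 75 passed (14.7%, against 11.3% of all probes), 5 higher and 6 lower, with a median of 0.00. SLC16A7, a monocarboxylate carrier that moves lactate and pyruvate, was higher by 0.62 in Large White pigs (SE 0.12, adjusted p = 0.000395 by limma). GPD1, the cytosolic glycerol-3-phosphate dehydrogenase, had a difference of -0.37, and GPD2, its mitochondrial partner in the shuttle, one of 0.20. Lower in Large White pigs were also TALDO1 and PGD of the pentose phosphate pathway, at -0.21 and -0.18, and SDHA, the flavoprotein of succinate dehydrogenase, at -0.15. ADM, a gene known to respond to low oxygen, gave 0.36. For the cross against the mean of the parents, 0 of the 75 passed by limma, with 11 at an unadjusted p under 0.05, against 11% of all probes.

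Among the markers of cell types, 11 of 38 were called between Large White and Creole pigs (28.9%, against 11.3% of all probes). Of 7 cortex markers, 2 were called, both lower in Large White pigs (HSD3B1, -0.78, and STAR, -0.34). Their summed level was 19.53 to 19.75 in Creole and 19.27 to 19.57 in Large White pigs on the log2 scale. Of 5 chromaffin markers, 3 were called, all higher in Large White pigs (CHGB, 0.53, PNMT, 0.38, and CHGA, 0.16), with sums of 18.94 to 19.34 in Creole and 19.00 to 19.53 in Large White pigs. Of 6 adipocyte markers, 4 were lower (ADIPOQ, -1.62, FABP4, -1.33, PLIN1, -0.90, and CIDEC, -0.59) and LPL was higher (0.91), with sums of 11.86 to 13.18 in Creole and 11.77 to 12.41 in Large White pigs. KDR of endothelium was higher by 0.68. Of the muscle, red blood cell, liver or kidney and immune cell markers, 0 were called. The part of cell makeup in the breed differences of the 8 genes was not tested. In HS minus TN, 1 of 38 markers was called (2.63%, against 0.886% of all probes), NR5A1 of the cortex, lower in HS pigs (-0.25, SE 0.06, adjusted p = 0.0254 by limma). All 7 cortex and all 5 chromaffin markers were below 0 in HS minus TN, with cortex sums of 19.36 to 19.75 at TN and 19.27 to 19.71 at HS.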

How the data were processed

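Adrenal RNA of 36 pigs was labelled with Cy3 and hybridised to 1-colour arrays, 1 per pig. The authors extracted spot intensity with Agilent Feature Extraction 10.10.1.1, and in the deposited files of single arrays this intensity is raw. Their deposited table of log2 values, used to choose probes and for comparison, holds 45348 probes. Its values are quantile-normalized median intensities and differ from those computed here by a median of 0.00698.

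Spots marked non-uniform or as population outliers and control spots were dropped from the single-array files, median intensity was quantile normalized, log2 was taken and spots of a probe were averaged. Probes above background on 9 or more of 18 arrays at TN or at HS were kept (45943 probes). limma 3.58.1 in R 4.3.3 (with statmod 1.5.0) was fitted over these probes, with breed and temperature as fixed effects or with 1 mean per breed and temperature group, with p adjusted by Benjamini-Hochberg and called under 0.05. Differences on single slides are plain differences of means over the same pigs, not adjusted for the other factor. Slide 1 held 1 Creole and 1 cross pig. The script was tested on simulated data. The number of arrays limits the precision, and pigs of 1 litter or pen are not independent. The fit took all pigs as independent, so its intervals may be too narrow and its p too small. Pen, day of slaughter and parents, random effects in the study's model, are not given with the arrays.

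Groups came from the labels. Genes, lists and tests were chosen with earlier results of these data known. By rule, values are given in full for genes of the list past the threshold in a comparison and, for temperature, for the 6 of smallest p, and other pathway genes are named up to 8 per comparison. Further genes of the list are named beside those of their step or near the threshold, a choice made with their values in view. A gene that this selects is left unreported. Coordinates are those of RefSeq genes on Sscrofa11.1, and the place of the probes in the genes was not determined. Sequences are the probes as the scanner files list them. The alternatives were the authors' values, median scaling, scaling of the processed signal by its 75th percentile, normexp with an offset of 50, no filter or a stricter one, the mean over a gene's probes, other probes, the slide as a block, and each slide or pig left out.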

Additional observations from a re-analysis of the deposited data

Results flagged for a closer look

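Pigs far from the other 5 of their group were looked for in the 14 genes given in detail, and 8 of 84 groups held one, where chance gives about 1 in 20, or 4.2. PFKM was lowest in Large White TN pig 5, at 11.659 against 12.133 to 12.285 in the others, and in Large White HS pig 5, at 11.551 against 12.026 to 12.264. SUCLG2 was lowest in Creole HS pig 5, at 13.85 against 14.048 to 14.103, and in Creole TN pig 5, at 13.743 against 14.001 to 14.078. PC was highest in Large White HS pig 3, at 14.263 against 13.174 to 13.438. DLD was lowest in cross HS pig 1, at 13.366 against 13.654 to 13.706. PDK4 was lowest in Large White HS pig 4, at 12.316 against 13.455 to 13.82. TPI1 was lowest in cross TN pig 5, at 13.789 against 14.264 to 14.45. The numbers of pigs were given here in the order of deposit and tie no pig to another.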

How the results depend on the processing

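Under 14 other settings and with each of 36 pigs left out, 0 of the 43 genes passed in HS minus TN, within any breed or in the interaction. In Large White minus Creole, 8 genes became 5 with the 75th percentile, 2 with median scaling and 4, 4, 3, 5 and 4 without slides 1 to 5. They ranged from 5 to 9 with a pig left out, with 5 without Large White TN pig 1, Creole HS pig 3 or Creole HS pig 4. SUCLG2 passed in 50 of the 50 settings, PC in 48, DLD in 46, PDHB in 45, PDK3 in 41, PDK4 in 38, ME1 in 33 and TPI1 in 14. Among the 3 breeds, 7 genes became 4 without slide 2, slide 3 or slide 5, and ranged from 5 to 7 with a pig left out. For the cross, the 1 gene became 0 with median scaling, with the mean over a gene's probes and without slides 2, 3 or 5, and ranged from 0 to 2 with a pig left out (0 without cross TN pig 2 or cross HS pig 4, 2 without cross TN pig 4). The 2 genes at TN became 1 with the mean over a gene's probes and without slides 1, 2, 4 or 5, and 1 to 3 with a pig left out (1 without Creole TN pigs 1, 2, 3 or 6 or Large White TN pigs 3, 4 or 5). The 2 genes at HS became 1 with the 75th percentile, median scaling, normexp, no filter and without slides 1, 4 or 5, 0 without slide 3, and 1 to 2 with a pig left out (1 without Creole HS pigs 1, 2, 4, 5 or 6, Large White HS pigs 3, 5 or 6, Large White TN pigs 2 or 6, cross TN pig 6 or cross HS pig 6). In other probes, TPI1 in Large White minus Creole reversed to -0.014, -0.025 and -0.015, and PDK3 in the cross to 0.25. Fewer pigs are left without a slide, and for the other settings the cause was not tested. With median scaling the HS minus TN difference was above 0 for 8 genes and below 0 for 35, with a median of -0.06, beside -0.01 over all probes. No analysis paired by litter was possible, because each pig was slaughtered once and litter is not given with the arrays. All 43 genes were above background on all 36 arrays, and precision is limited by the number of arrays.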

Other observations

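The PDHA1 values of single cross pigs were as follows for probe 1 and for probe 3. In the cross TN pigs 1 to 6, probe 1 was at 13.16, 13.41, 13.40, 14.33, 13.34 and 14.14. Probe 3 was at 12.79, 12.65, 12.66, 12.23, 12.76 and 12.10 in the same pigs. In the cross HS pigs 1 to 6, probe 1 was at 14.18, 14.29, 14.22, 13.29, 13.24 and 13.28, and probe 3 was at 12.20, 12.27, 12.31, 12.51, 12.62 and 12.66. The 7 cross pigs of the low set on probe 1 were thus the 7 highest on probe 3. In Large White TN pigs 1 and 6, the 2 others of the low set, probe 1 was at 13.22 and 13.35 and probe 3 at 12.83 and 12.77, and no other Large White pig was as high on probe 3. On PDK3 probe 1, Large White TN pigs 1 and 6 were also the lowest Large White pigs, at 11.154 and 11.167. The lowest cross pigs there, at 10.94 to 11.25, were also of the low set. Cross TN pigs 3 and 5 of that set, at 11.371 and 11.315, lay among the other cross pigs. The differences of PDK3 and PDHA1 thus share pigs. Since these sets were seen in the values, no test was made of them.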
